A study of Mus musculus with 24 samples.

Results

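Angptl4 was followed in mouse organ of Corti (OC) explants as 1 of the 24454 gene identifiers of the count table (Entrez 57875), over all 8 groups of treatment and time. The 24 libraries came from OCs of 5-day-old C57BL/6N mice of both sexes, 3 libraries per group and 6 pooled OCs per library. Explants received no drug (CTRL), 50 µM gentamicin (GM), an aminoglycoside antibiotic toxic to auditory hair cells, 10 µM pioglitazone (PIO), which activates the receptor PPARγ, or both drugs (PIO+GM), and RNA was taken after 6 or 24 h. All explants, controls included, had been kept in medium with fetal calf serum and penicillin, and each library is a whole explant pool that holds several cell types. The gene was chosen by its fold changes with pioglitazone at 24 h, known from an earlier reading of these data, so every contrast that holds a 24 h pioglitazone group, and every contrast between the time points, is given as a description without a test.

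Angptl4 encodes angiopoietin-like protein 4, a secreted glycoprotein that inhibits lipoprotein lipase, the enzyme that releases fatty acids from circulating triglyceride. It is a classical target of the PPAR receptors, which bind DNA together with a retinoid X receptor and are activated by fatty acids or by synthetic ligands, and it is also induced by fasting, hypoxia and glucocorticoids. Proprotein convertases such as furin cut the protein into an amino-terminal part that carries the lipase inhibition and a carboxy-terminal fibrinogen-like part. Its best known sources are adipose tissue and liver.

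In GRCm38 (mm10) the gene lies on chromosome 17, from 33773750 to 33781830 on the minus strand (GENCODE M21), with 7 exons, 3308 exonic bases and 1230 coding bases. Exon 1 (33781063 to 33781830) holds the 5′ UTR and the start of the coding sequence, and exon 7 (33773750 to 33775568) holds the end of the coding sequence and the 3′ UTR. No other annotated gene overlapped it, and none of the 3233 windows of 76 bases (the read length) of its transcript occurred in a transcript of another gene, in a search for exact matches that does not cover near-identical copies. The deposited length used for levels per length was 1903 bases.

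The libraries held 7211357 to 15548856 counted reads (median 12538495), and 3 counts were worth 0.193 to 0.416 CPM, the count scaled to the effective library size. Angptl4 had between 65 and 1642 counts in every library, so counting error was small beside the differences between libraries; its biological coefficient of variation was 0.341, against 0.225 for the common value over the 16317 genes tested. Markers of the tissue were present: all 14 hair cell markers and all 12 supporting cell markers passed the filter on low counts. The 7 adipocyte markers together had 7 to 35 counts per library and only 1 of them, Lep, passed that filter, with Adipoq and Plin1, which define that cell type, at no more than 4 and 8 counts in any library.

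At 24 h, Angptl4 was far higher in all 6 libraries with pioglitazone than in the 6 without it, whether or not gentamicin was present. In CTRL at 24 h its level was 7.82, 9.77 and 7.85 CPM in replicates 1 to 3. In GM at 24 h it was 10.6, 15.1 and 10.7 CPM. Every GM library was thus above every CTRL library, and both groups were low. In PIO at 24 h the 3 libraries had 70.3, 107 and 84.0 CPM. In PIO+GM at 24 h they had 87.7, 83.5 and 60.7 CPM. The lowest library with pioglitazone (60.7 CPM) was 4.03 times the highest without it (15.1 CPM), and the 2 sets did not overlap.

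**Figure D1:**
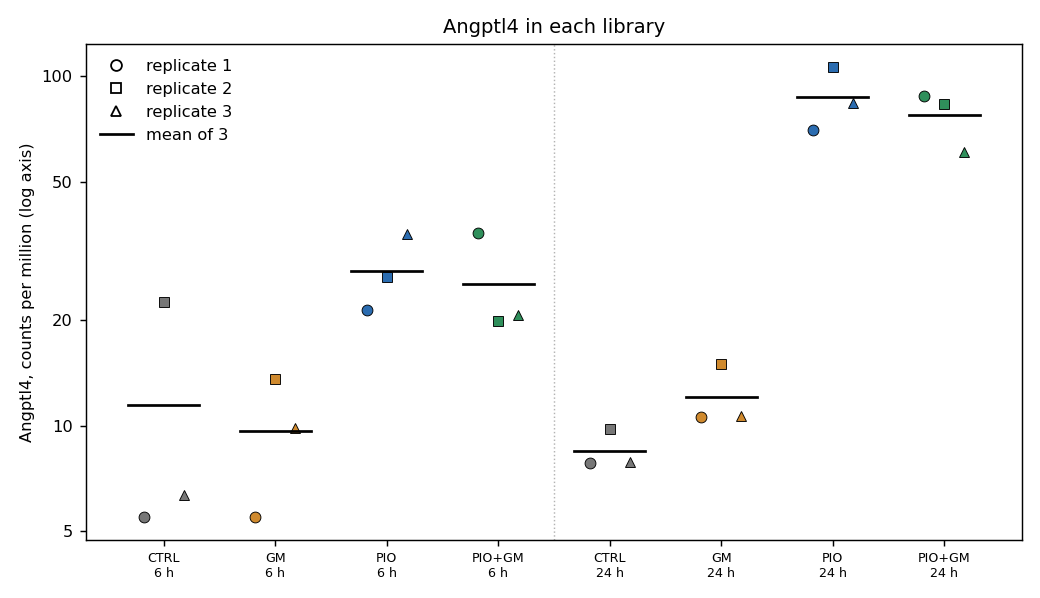
Angptl4 level in CPM (vertical log axis) in each of the 24 libraries, arranged by treatment and time along the horizontal axis; symbols mark the replicate number and bars the mean of 3 libraries. At 24 h the 6 libraries with pioglitazone lie between 60.7 and 107 CPM and the 6 without it between 7.82 and 15.1 CPM, and at 6 h replicate 2 of CTRL (22.6 CPM) lies among the libraries with pioglitazone.

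The fitted log2 fold change at 24 h was 3.35 (SE 0.43) for PIO vs CTRL, which is a 10.2-fold level, and 2.67 (SE 0.42, 6.38-fold) for PIO+GM vs GM. These are the contrasts for which the gene was picked, and they are given without a test; 25 of 16317 genes (0.153%; 0.0368% higher and 0.116% lower) passed an adjusted p of 0.05 in PIO vs CTRL at 24 h and 18 (0.11%; 0.0245% higher and 0.0858% lower) in PIO+GM vs GM, by edgeR. By the size of the fitted fold change Angptl4 was number 3 among the increases of all genes tested in PIO vs CTRL and number 5 in PIO+GM vs GM. Against the other control of the time point, the log2 fold change was 3.18 (SE 0.43) for PIO+GM vs CTRL and 2.84 (SE 0.42) for PIO vs GM. Adding gentamicin to pioglitazone moved Angptl4 by -0.17 (SE 0.39) on the log2 scale at 24 h, less than its SE, and the difference between the pioglitazone effects with and without gentamicin was -0.68 (SE 0.57).

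In bulk libraries of this kind, a change in the number of cells that express a gene and a change in RNA per cell cannot be told apart. The summed level of the 8 fibroblast and mesenchyme markers moved with pioglitazone at 24 h: it was 3650 to 4752 CPM in the 6 libraries with the drug and 5198 to 7508 CPM in the 6 without it. The 10 endothelial markers summed to 226 to 383 CPM with pioglitazone and 309 to 522 CPM without it, and these sets overlapped, although all 10 had fitted values below 0 in both PIO vs CTRL (median -0.25) and PIO+GM vs GM (median -0.50). Of the 14 hair cell markers, 12 had fitted values below 0 in PIO vs CTRL (median -0.28) and 10 in PIO+GM vs GM (median -0.16). The 8 Schwann cell markers had medians of -0.40 and -0.04, and the 8 fibroblast and mesenchyme markers -0.45 and -0.59. No marker of these 4 lists passed at 24 h, where only 0.153% of all genes passed in PIO vs CTRL and 0.11% in PIO+GM vs GM. An unadjusted p under 0.05 by edgeR was found for 3 and 5 of the 8 fibroblast and mesenchyme markers. It was found for 0 and 2 of the 14 hair cell markers, for none of the endothelial and Schwann cell markers, and for 1621 and 1219 of the 16317 genes tested. The part of these lists in the Angptl4 values was not tested. The 7 adipocyte markers stayed near 0 in both, with sums of 0.5003 to 2.28 CPM in the libraries with pioglitazone and 0.462 to 2.07 CPM in those without it.

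At 6 h, Angptl4 was already higher with pioglitazone, but by less and with more spread. CTRL libraries had 5.46, 22.6 and 6.30 CPM and GM libraries 5.46, 13.6 and 9.86 CPM. PIO libraries had 21.4, 26.6 and 35.3 CPM, and PIO+GM libraries 35.6, 20.0 and 20.8 CPM. Every library with pioglitazone was thus above every GM library, whereas replicate 2 of CTRL overlapped the libraries with the drug. Without that library the lowest value with pioglitazone (20.0 CPM) was 1.47 times the highest without it (13.6 CPM).

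Averaged over explants with and without gentamicin, Angptl4 rose with pioglitazone at 6 h by 1.35 on the log2 scale (SE 0.29), a 2.54-fold change with a 95% interval of 1.67 to 3.88. The adjusted p was 0.00693 by edgeR's quasi-likelihood test over all genes, in a contrast in which 16.1% of all genes passed, 9.25% higher and 6.83% lower. An exact permutation test of the log2 CPM values, two-sided and within the explants with and without gentamicin (400 arrangements), gave p = 0.0100 for a mean difference of 1.49, where 0.00500 is the smallest p it allows. The call was lost when only the 12 libraries of 6 h were fitted (adjusted p = 0.0790 by edgeR), and replicate 2 of CTRL moved the value most: without it the log2 change was 1.82 (adjusted p = 0.000214).

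Some markers of the cell types of the explant passed in the mean effect at 6 h, where 16.1% of all genes did, and their part in the 6 h values was not tested. There 3 of the 14 hair cell markers, 1 of the 8 Schwann cell markers, 1 of the 10 endothelial markers and 2 of the 8 fibroblast and mesenchyme markers fell, 1 of the 11 macrophage markers rose and none of the 12 supporting cell markers passed. With the GC trend removed, only the fibroblast marker Pdgfra of these kept its call. All 8 Schwann cell and all 10 endothelial markers had fitted values below 0, with medians of -0.57 and -0.37, against -0.02 over all genes tested. The fibroblast and mesenchyme markers summed to 3069 to 4513 CPM with pioglitazone at 6 h and 3692 to 5668 CPM without it, and the endothelial markers to 249.8 to 389 CPM and 272 to 553 CPM, so both pairs of sets overlapped. The Schwann cell markers summed to 385 to 2669.5 CPM and 841 to 2832 CPM, and the adipocyte markers to 1.12 to 4.05 CPM and 1.12 to 2.36 CPM.

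At 6 h no single contrast of a pioglitazone group with a group lacking it passed by edgeR's quasi-likelihood test without a replicate block. All 4 were fitted over the 24 libraries, and 2 passed by edgeR's likelihood ratio test and 3 by DESeq2. With a block for replicate number, PIO+GM vs GM, PIO+GM vs CTRL and PIO vs GM passed (adjusted p = 0.0263, 0.0443 and 0.0477 by edgeR). The values that follow are without the block. PIO vs CTRL gave a log2 fold change of 1.29 (SE 0.41, adjusted p = 0.156 by edgeR) and PIO+GM vs GM 1.41 (SE 0.41, adjusted p = 0.0732). PIO+GM vs CTRL gave 1.16 (SE 0.41, adjusted p = 0.107 by edgeR) and PIO vs GM 1.53 (SE 0.41, adjusted p = 0.117). Over all genes 55 (0.337%; 0.147% higher and 0.19% lower) passed in PIO vs CTRL at 6 h and 216 (1.32%; 0.601% higher and 0.723% lower) in PIO+GM vs GM. With replicate 2 of CTRL left out, PIO vs CTRL was 2.24 (adjusted p = 0.0133 by edgeR), PIO+GM vs CTRL 2.11 (adjusted p = 0.00629), PIO+GM vs GM 1.40 (adjusted p = 0.0297) and PIO vs GM 1.53 (adjusted p = 0.0385). PIO+GM vs GM also passed by edgeR without replicate 2 of PIO (log2 fold change 1.41, adjusted p = 0.0415).

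The library that stood apart, replicate 2 of CTRL at 6 h, had an Angptl4 level 1.91 log2 units above the mean of the other 2 CTRL libraries, a larger excess than 99.4% of the genes tested showed there. Pdk4, a pyruvate dehydrogenase kinase and another PPAR target, was 1.36 log2 units above them, whereas Cpt1a, which carries long-chain fatty acids into mitochondria, was 0.30 above. In the same library the endothelial and skeletal muscle marker sums (553 and 6.52 CPM) were the highest of the 24 libraries and the supporting cell sum (4206 CPM) and hair cell sum (529 CPM) the lowest. Their part in its Angptl4 level was not tested.

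Transcript GC content moved with the 6 h effects. Over the 15389 genes with a value, the mean pioglitazone effect at 6 h and GC percent had a Spearman rho of -0.56, a description across genes that share the same libraries. Angptl4, at 50.7% GC, had 1602 genes within 1 percentage point of it, and their median log2 effect was -0.04. With each library's GC trend removed, the Angptl4 effect was 1.39 (adjusted p = 0.00552 by edgeR), as large as before.

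Angptl4 passed no test of gentamicin alone, although at 24 h every GM library (10.6 to 15.1 CPM) was above every CTRL library (7.82 to 9.77 CPM). GM vs CTRL was -0.24 (SE 0.42, 95% interval -1.11 to 0.63) at 6 h and 0.51 (SE 0.42, 95% interval -0.36 to 1.38) at 24 h on the log2 scale, with adjusted p of 1.00 by edgeR at both times. The 24 h libraries of this contrast were the comparators of the fold changes by which the gene was chosen. Its 24 h test is therefore not independent of that choice. The 6 h value turned positive, to 0.71, without replicate 2 of CTRL. Adding gentamicin to pioglitazone at 6 h moved Angptl4 by -0.12 (SE 0.40, 95% interval -0.95 to 0.71, adjusted p = 0.998 by edgeR). The pioglitazone effect with gentamicin differed from that without it by 0.12 (SE 0.58, 95% interval -1.08 to 1.32) at 6 h, with an adjusted p of 1.00 by edgeR. Without replicate 2 of CTRL that difference was -0.83. In the whole table, GM vs CTRL had 0 genes past the threshold at 6 h by edgeR (243 with an unadjusted p under 0.05) and 2 at 24 h (0.0123%, both higher). PIO+GM vs PIO had 0 at 6 h by edgeR (500 with an unadjusted p under 0.05) and 12 at 24 h (0.0735%; 0.0674% higher and 0.00613% lower).

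**Figure D2:**
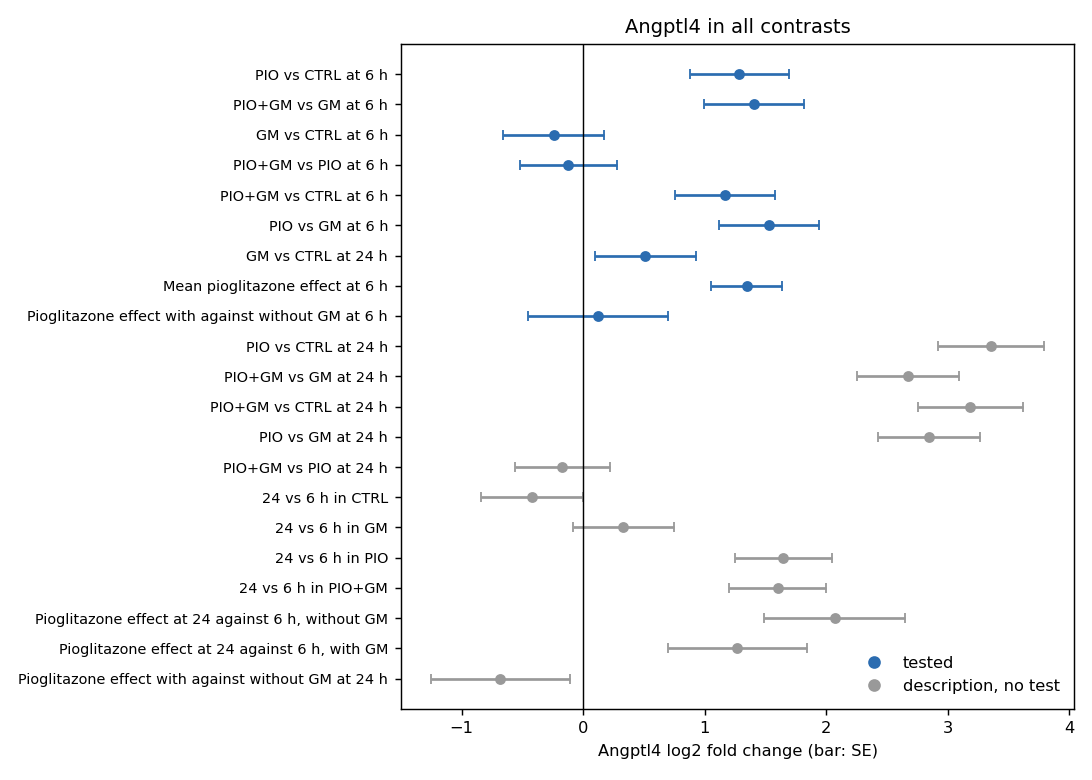
Fitted log2 fold change of Angptl4 (horizontal axis) in each contrast (vertical axis), with its SE as a bar; blue points are tested contrasts and grey points descriptions. The 4 contrasts of a 24 h pioglitazone group with a group lacking the drug lie between 2.67 and 3.35, and those at 6 h between 1.16 and 1.53.

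Between 6 and 24 h, Angptl4 moved in different ways with and without pioglitazone. The 24 vs 6 h log2 difference was 1.65 (SE 0.40) in PIO and 1.60 (SE 0.40) in PIO+GM. It was -0.42 (SE 0.42) in CTRL, where the 6 h value rests on replicate 2 and the difference is 0.53 without it, and 0.33 (SE 0.41) in GM. The pioglitazone effect was thus larger at 24 h than at 6 h by 2.07 (SE 0.58) without gentamicin, or by 1.12 when replicate 2 of CTRL at 6 h is left out, and by 1.27 (SE 0.57) with gentamicin.

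Ordered by mean log2 CPM, the 8 groups ran from CTRL at 24 h (8.48 ± 1.12 CPM, SD, n = 3) through GM at 6 h (9.62 ± 4.05), CTRL at 6 h (11.4 ± 9.64) and GM at 24 h (12.1 ± 2.56) to PIO+GM at 6 h (25.5 ± 8.82), PIO at 6 h (27.7 ± 7.02), PIO+GM at 24 h (77.3 ± 14.5) and PIO at 24 h (87.0 ± 18.4). Neighbours overlapped except at 2 places: between GM at 24 h and PIO+GM at 6 h, where the means differed by 1.03 on the log2 scale, and between PIO at 6 h and PIO+GM at 24 h, where they differed by 1.48. Among the 4 groups without pioglitazone only CTRL and GM at 24 h did not overlap, and the 2 pioglitazone groups of each time point overlapped.

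Among its family, Angptl4 had a lower mean than Angptl2 in every group without pioglitazone and was the most abundant member with it at 24 h. In RPKM, which divides CPM by transcript length in kilobases, Angptl4 had 4.46 ± 0.588 (SD, n = 3) in CTRL at 24 h and Angptl2, a secreted family member linked to inflammation, 15.9 ± 3.34. In PIO at 24 h Angptl4 had 45.7 ± 9.67 RPKM and Angptl2 13.4 ± 4.64. Angptl1 and Angptl6 reached at most 10.2 and 6.29 RPKM in any library. Angptl8, which also acts on lipoprotein lipase, had at most 12 counts in any library and Angptl7 at most 7, so neither was tested.

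None of the 3 other family members tested passed in PIO vs CTRL or PIO+GM vs GM at 6 or 24 h, where 0.11% to 1.32% of all genes did. In the mean pioglitazone effect at 6 h 2 of the 3 passed, where 16.1% of all genes did, and Angptl2 moved by -1.16 (SE 0.21, adjusted p = 0.00234 by edgeR), opposite in direction to Angptl4. Angptl2 had 40.9, 48.1 and 40.4 CPM in CTRL at 6 h and 15.1, 17.6 and 22.2 CPM in PIO, and these groups did not overlap. Angptl1 moved by -0.72 (SE 0.24, adjusted p = 0.0466 by edgeR), a call that returned in only 6 of the 24 fits with 1 library left out. At 24 h the log2 fold changes in PIO vs CTRL were -0.58 (SE 0.30) for Angptl1, -0.25 (SE 0.28) for Angptl2 and 0.44 (SE 0.50) for Angptl6, and none passed.

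**Figure D3:**
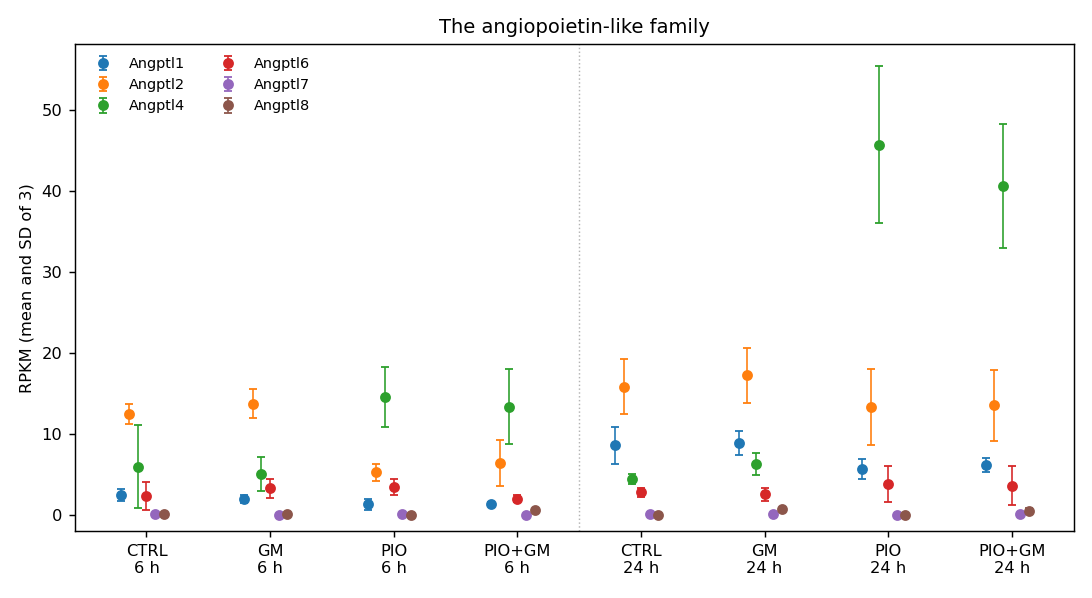
Level of 6 angiopoietin-like genes in RPKM (vertical axis; points are the mean and bars the SD of 3 libraries) in each group (horizontal axis). Angptl4 reaches 45.7 RPKM in PIO and 40.6 RPKM in PIO+GM at 24 h, while Angptl2 stays between 5.31 and 17.3 RPKM in all groups and Angptl7 and Angptl8 lie near 0.

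Of the 16 genes of the lipoprotein lipase axis, the lipase that ANGPTL4 inhibits and the genes around it, 12 were tested and none passed in PIO vs CTRL or PIO+GM vs GM at either time, where 0.11% to 1.32% of all genes passed, or in the mean effect at 6 h, where 16.1% did. Their median log2 fold change in PIO vs CTRL at 24 h was 0.04, against -0.01 over all genes tested, and in PIO+GM vs GM at 6 h it was -0.47, with 9 of the 12 below 0, against -0.02. Lpl, the lipase itself, had 15.8, 13.4 and 16.1 CPM in CTRL and 21.1, 26.7 and 26.4 CPM in PIO at 24 h, with a log2 fold change of 0.71 (SE 0.40, adjusted p = 0.580 by edgeR). In PIO+GM vs GM at 6 h its log2 fold change was -1.18 (SE 0.41, adjusted p = 0.103 by edgeR), and in the mean effect at 6 h -0.62 (SE 0.29, adjusted p = 0.133 by edgeR). Gpihbp1, the endothelial anchor of the lipase, had only 2 to 74 counts per library and a log2 fold change of -0.13 (SE 0.66) in PIO vs CTRL at 24 h. Lmf1, needed for the maturation of the lipase, had 0.18 (SE 0.27) in that contrast. Among the receptors and other lipases, the values in PIO vs CTRL at 24 h were -0.08 (SE 0.26) for Vldlr, 0.11 (SE 0.43) for Lrp1 and -1.18 (SE 0.47) for Lipg. Lipc, Apoc2, Apoc3 and Apoa5 had at most 9 counts in any library and were not tested.

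The convertases that can cut ANGPTL4 were all expressed. The median over the 24 libraries was 31.6 RPKM for Furin, 22.1 for Pcsk6, 10.8 for Pcsk7 and 7.50 for Pcsk5. None of the 4 passed in PIO vs CTRL or PIO+GM vs GM at either time, where 0.11% to 1.32% of all genes did. Furin moved by -0.71 (SE 0.21, adjusted p = 0.0272 by edgeR) in the mean effect at 6 h, and had -0.05 (SE 0.29) in PIO vs CTRL at 24 h. Its transcripts are 55.9% GC, and with the GC trend of each library removed the 6 h value was -0.50 (adjusted p = 0.0272 by edgeR). The call was lost when only the 12 libraries of 6 h were fitted (adjusted p = 0.137 by edgeR), and it returned in 19 of the 24 fits with 1 library left out.

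Of the PPAR receptors, Ppard had the highest level per length (median 5.85 RPKM), followed by Ppara (1.43) and Pparg (0.850). Pparg, which encodes the main receptor of pioglitazone, had 8 to 45 counts per library. It had 2.46, 0.990 and 2.97 CPM in CTRL and 1.16, 0.520 and 1.29 CPM in PIO at 24 h, groups that overlapped, with a log2 fold change of -1.09 (SE 0.40, adjusted p = 0.332 by edgeR). None of the 14 receptor and coregulator genes passed in PIO vs CTRL or PIO+GM vs GM, where at most 1.32% of all genes did. In the mean effect at 6 h 2 of the 14 passed (14.3%, against 16.1% of all genes), both lower, among them Rxra, a partner of the PPARs, with -0.55 (SE 0.18, adjusted p = 0.0466 by edgeR). With the GC trend removed Rxra had -0.29 (adjusted p = 0.106 by edgeR).

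Of the 45 other PPAR target genes listed, 37 were tested. In PIO vs CTRL at 24 h 3 of the 37 rose and none fell, among them Cpt1a, which carries long-chain fatty acids into mitochondria, and Acadl, a mitochondrial fatty acid dehydrogenase. Both 24 h contrasts gave the same 3 genes (8.11% of the 37, where 0.153% of all genes tested passed in PIO vs CTRL and 0.11% in PIO+GM vs GM). The list's median log2 fold change was 0.17 in PIO vs CTRL and 0.20 in PIO+GM vs GM, against -0.01 and 0.00 over all genes tested. The adipocyte targets Fabp4, Adipoq, Plin1 and Cidec had at most 24 counts in any library and were not tested.

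Cpt1a had 76.05, 91.7 and 80.1 CPM in CTRL and 182, 193 and 165 CPM in PIO at 24 h, a log2 fold change of 1.12 (SE 0.12, adjusted p = 0.000170 by edgeR). With gentamicin present the change was 1.06 (SE 0.12, adjusted p = 0.000410 by edgeR). The CTRL and PIO libraries did not overlap. Cpt1a also passed in single contrasts at 6 h, with 0.88 (SE 0.12, adjusted p = 0.00525 by edgeR) in PIO vs CTRL and 0.77 (SE 0.12, adjusted p = 0.00721 by edgeR) in PIO+GM vs GM, and whether it differs in this from Angptl4 was not tested.

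Acadl rose in PIO vs CTRL at 24 h, from 45.8, 52.3 and 43.4 CPM to 67.1, 77.9 and 72.0 CPM, by 0.62 (SE 0.12, adjusted p = 0.0403 by edgeR); this call returned in 10 of the 24 fits with 1 library left out. Pdk4, a pyruvate dehydrogenase kinase, had 1.30 (SE 0.33, adjusted p = 0.113 by edgeR) in PIO vs CTRL at 24 h and did not pass, and rose in PIO+GM vs GM at 6 h by 1.56 (SE 0.32, adjusted p = 0.0330 by edgeR).

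**Figure D4:**
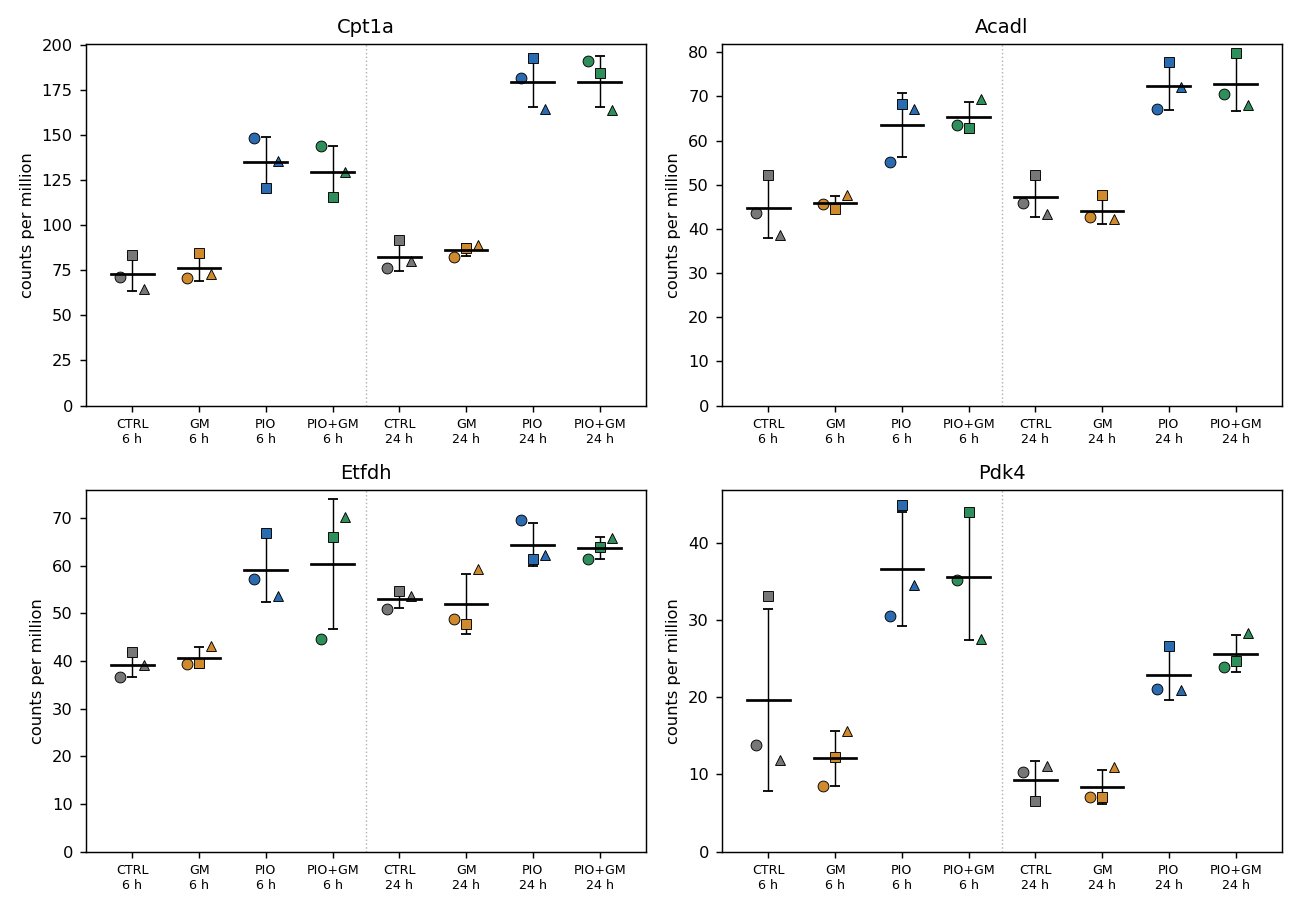
Level in CPM (vertical axes, from 0) of 4 PPAR target genes in each library, by group (horizontal axes); lines and bars are the mean and SD of 3 libraries and circles, squares and triangles replicates 1, 2 and 3. Cpt1a at 24 h lies between 76.05 and 91.7 CPM in CTRL and between 165 and 193 CPM in PIO, and in Pdk4 replicate 2 of CTRL at 6 h (33.1 CPM) lies high, as it does in Angptl4.

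At 6 h the list was divided. In PIO vs CTRL 1 of the 37 rose, Cpt1a (2.70%, against 0.337% of all genes). In PIO+GM vs GM 6 of the 37 passed (16.2%, against 1.32% of all genes), of which 4 rose (Cpt1a, Acadl, Pdk4 and Etfdh, an electron carrier of fatty acid oxidation) and 2 fell: Plin4, a lipid droplet coat protein, with -2.19 (SE 0.44, adjusted p = 0.0294 by edgeR), and Slc27a1, a fatty acid transporter, with -1.32 (SE 0.25, adjusted p = 0.0199 by edgeR). In the mean effect 11 of the 37 passed (29.7%, against 16.1% of all genes), 8 higher and 3 lower. Beyond those named, Ucp1, Hadha, Hadhb and Slc25a20 rose and Gpd1 fell, of which Ucp1, Hadhb and Gpd1 did not pass with the GC trend removed (adjusted p = 0.0569, 0.588 and 0.176 by edgeR). Ucp1 had only 1 to 12 counts per library. Its call returned in 15 of the 24 fits with 1 library left out, that of Hadhb in 17 and that of Gpd1 in 3. With the GC trend removed, Acadl and Etfdh did not pass in PIO+GM vs GM at 6 h (adjusted p = 0.219 and 0.0976 by edgeR). All the 6 h calls in single contrasts were lost when only the 12 libraries of that time were fitted. In the mean effect, that fit also lost the calls of Pdk4, Etfdh, Hadha, Hadhb, Slc25a20 and Gpd1, and kept those of Cpt1a, Acadl, Plin4 and Slc27a1.

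**Figure D5:**
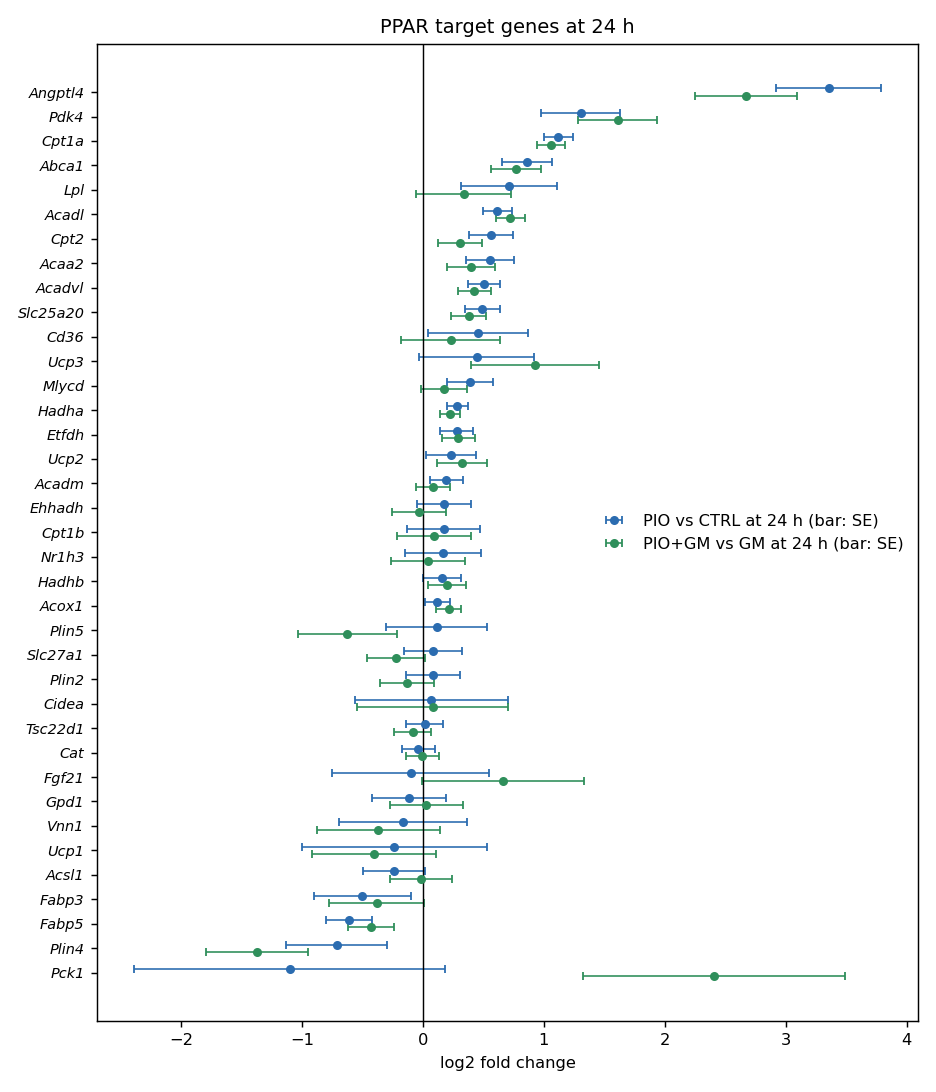
Fitted log2 fold change (horizontal axis, bars SE) at 24 h of 37 of the 38 PPAR target genes tested (vertical axis; Angptl4 is among them), in PIO vs CTRL (blue) and PIO+GM vs GM (green). Angptl4, which was chosen for its fold changes in these contrasts, has the largest value in both, 3.35 and 2.67. Pdk4 and Cpt1a lie at 1.30 and 1.12 in PIO vs CTRL.

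Hypoxia and glucocorticoids are other known inducers of Angptl4. The part of either in the Angptl4 values was not tested. None of the other 24 hypoxia inducible genes passed in PIO vs CTRL or PIO+GM vs GM, where 0.153% and 0.11% of all genes passed at 24 h and 0.337% and 1.32% at 6 h. Their median log2 fold change was 0.01 in PIO vs CTRL at 24 h, with 12 of the 24 above 0, and 0.13 in PIO+GM vs GM at 24 h, with 18 of the 24 above 0, against -0.01 and 0.00 over all genes tested. The largest values in PIO vs CTRL at 24 h after Angptl4 were -0.34 (SE 0.39) for the hexokinase Hk2 and 0.34 (SE 0.47) for the collagen hydroxylase subunit P4ha2. Pfkfb4, a regulator of glycolysis, moved by -0.74 (SE 0.16, adjusted p = 0.00610 by edgeR) in the mean effect at 6 h, opposite in direction to Angptl4, and was 1 of the 24 to pass there (4.17%, against 16.1% of all genes). Its call was lost when only the 12 libraries of 6 h were fitted (adjusted p = 0.0769 by edgeR). Of the 14 other glucocorticoid inducible genes, Pdk4 alone passed, in PIO+GM vs GM and in the mean effect at 6 h (7.14%, against 1.32% and 16.1% of all genes), and it is also on the PPAR list. The median of the 14 was -0.07 in PIO vs CTRL and 0.05 in PIO+GM vs GM at 24 h. Lcn2, at -1.63 (SE 1.44), and Sult1a1, at -1.35 (SE 0.40, adjusted p = 0.201 by edgeR), had the largest values in PIO vs CTRL at 24 h after Angptl4, and neither passed.

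The 5 genes whose log2 CPM followed Angptl4 most closely over the 24 libraries were Cpt1a (Pearson r = 0.95, Spearman rho = 0.94), Acadl (0.91 and 0.86), Ccdc93 (0.84 and 0.82), Hgsnat (0.83 and 0.82) and Dgke (0.82 and 0.85). These are descriptions, since the libraries fall into sets with and without pioglitazone and share a normalisation. Within the 12 libraries without pioglitazone r was 0.69 for Cpt1a and 0.54 for Acadl (rho 0.73 and 0.31). Within the 12 with it, which span both times, r was 0.91 and 0.72 (rho 0.92 and 0.69). For Ccdc93, Hgsnat and Dgke r was 0.44, 0.23 and 0.62 without the drug and 0.56, 0.89 and 0.65 with it. Hgsnat encodes a lysosomal enzyme of heparan sulphate breakdown and Dgke a diacylglycerol kinase. Ccdc93, Hgsnat and Dgke did not pass in PIO vs CTRL or PIO+GM vs GM at either time, with 0.42 (SE 0.11), 0.42 (SE 0.10) and 0.29 (SE 0.13) in PIO vs CTRL at 24 h. In the mean effect at 6 h their values were 0.28 (SE 0.08), 0.38 (SE 0.07) and 0.35 (SE 0.09), given without a test since the genes were chosen for following Angptl4 over the same libraries.

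The promoters of Cpt1a and Acadl are shown because these genes followed Angptl4 most closely and passed at 24 h. The 250 bases before the start listed for each promoter (GRCm38.p6) are printed 5′ to 3′ on the gene's strand. For Cpt1a this start lies inside the RefSeq span of the gene, which begins at 3322326, so its window is not upstream of the whole gene. Capitals mark matches on either strand to AGGTCA, the half-site that a PPAR and its RXR partner bind as a direct repeat.
Cpt1a, chr19:3323051-3323300, plus strand: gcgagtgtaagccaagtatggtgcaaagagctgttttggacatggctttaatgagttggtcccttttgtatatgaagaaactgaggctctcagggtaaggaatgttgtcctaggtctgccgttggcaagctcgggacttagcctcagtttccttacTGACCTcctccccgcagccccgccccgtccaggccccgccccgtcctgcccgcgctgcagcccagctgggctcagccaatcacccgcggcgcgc
Acadl, chr1:66863310-66863559, minus strand: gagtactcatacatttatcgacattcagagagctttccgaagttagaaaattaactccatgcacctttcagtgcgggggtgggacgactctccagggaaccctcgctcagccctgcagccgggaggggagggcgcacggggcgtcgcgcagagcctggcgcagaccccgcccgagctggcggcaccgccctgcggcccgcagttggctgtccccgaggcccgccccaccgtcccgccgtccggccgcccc
Cpt1a had 1 half-site, 94 bases before the listed start, and Acadl had 0 in this window. A half-site occurred in 14.0% of the 32851 promoters of the table over the same length. The exact direct repeat with 1 base between the half-sites was in neither, and in 11 of all promoters.

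None of the 4 genes next to Angptl4 on chromosome 17 passed in PIO vs CTRL or PIO+GM vs GM, where 0.11% to 1.32% of all genes did. On the lower side lie Rab11b (33742484 to 33760486) and Marchf2 (33685692 to 33718677), and on the higher side Kank3 (33810523 to 33822920) and Rps28 (33823036 to 33824562). Their log2 fold changes in PIO vs CTRL at 24 h were 0.14 (SE 0.09) for Rab11b, 0.28 (SE 0.12) for Marchf2, 0.55 (SE 0.35) for Kank3 and 0.00 (SE 0.15) for Rps28. Marchf2, which encodes a ubiquitin ligase, moved by 0.33 (SE 0.09, adjusted p = 0.0169 by edgeR) in the mean effect at 6 h, a call that was lost without the filter on low counts and in the fit of the 12 libraries of 6 h (adjusted p = 0.114 by edgeR).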

How the data were processed

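RNA from 24 OC pools was sequenced as single reads of 76 bases from stranded total RNA libraries. Per the study's methods, the authors mapped reads with STAR (mm10) and deposited raw counts of reads starting in any exon of a gene. Whether counting used strand, and how reads with several hits were treated, is not given in the sources used here. Of the 24454 identifiers, 24374 matched a symbol.

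CPM, RPKM and log2 CPM (prior count 2) were computed from the deposited counts with TMM factors (0.961 to 1.04). edgeR 4.0.16 (quasi-likelihood, 1 mean per group over 24 libraries, filterByExpr, Benjamini-Hochberg over 16317 genes, threshold 0.05) gave fold changes; DESeq2 1.42.0 was an alternative. The pipeline was tested on simulated data. Replicates are separate wells of pooled OCs; whether they came from separate animals is not stated, so p-values measure the spread between these samples. Angptl4 and the gene lists were chosen with earlier results of these data known. Named genes are the lists on the angiopoietin-like family, lipase axis, convertases and receptors, members of the PPAR, hypoxia and glucocorticoid lists that passed or were among the 3 largest in PIO vs CTRL at 24 h, the 5 genes most alike and 2 neighbours on each side. Some members of these lists are not reported here.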

Additional observations from a re-analysis of the deposited data

How the results depend on the processing

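In each contrast of a pioglitazone group with a group lacking the drug, Angptl4 kept its direction under every alternative run. Over the alternatives other than leaving out a library, its log2 fold change was 3.34 to 3.38 in PIO vs CTRL at 24 h, 2.67 to 2.69 in PIO+GM vs GM at 24 h, and 1.33 to 1.52 in the mean effect at 6 h, which lost its call in 1 of 9, the fit of the 12 libraries of 6 h (1.33, adjusted p = 0.0790 by edgeR), where fewer libraries were fitted. At 65 or more counts in every library, the spread between 3 libraries limits these values more than depth.

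At 6 h, PIO+GM vs GM passed by the likelihood ratio test (1.40, adjusted p = 0.0325) and DESeq2 (1.42, adjusted p = 0.0155), and PIO vs GM by the same (1.53, adjusted p = 0.0323, and 1.53, adjusted p = 0.0192). PIO+GM vs CTRL passed by DESeq2 (1.17, adjusted p = 0.0499). The cause was not tested.

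Same-numbered libraries were not treated as pairs in the main fit, because not every pair's deviations had a correlation over 0.1. Failing that rule does not show that same-numbered libraries were independent. The mean correlation was 0.11 at 6 h (9 of 18 pairs over 0.1) and 0.38 at 24 h (15 of 18), against -0.05 and -0.18 for libraries of other numbers, and 16 of 24 libraries correlated best with their own number. With the replicate block at 6 h, edgeR gave 1.53 (adjusted p = 0.0263) in PIO+GM vs GM, 1.37 (0.0443) in PIO+GM vs CTRL and 1.60 (0.0477) in PIO vs GM. With the block and the GC trend removed, chosen after seeing the data, it gave 1.45 (0.0411) in PIO vs CTRL, 1.59 (0.0323) in PIO+GM vs GM, 1.42 (0.0471) in PIO+GM vs CTRL and 1.63 (0.0308) in PIO vs GM.

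Leaving out 1 library at a time gave Angptl4 0.94 to 2.24 in PIO vs CTRL, 1.09 to 1.73 in PIO+GM vs GM, 0.82 to 2.11 in PIO+GM vs CTRL, 1.24 to 1.85 in PIO vs GM, -0.57 to 0.71 in GM vs CTRL, -0.44 to 0.10 in PIO+GM vs PIO and -0.83 to 0.45 in the pioglitazone effect with against without gentamicin, all at 6 h. It gave -0.76 to 0.53 for 24 vs 6 h in CTRL and 1.12 to 2.41 for the pioglitazone effect at 24 against 6 h without gentamicin.

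The counts of genes called in PIO vs CTRL at 6 h, PIO+GM vs GM at 6 h, PIO vs CTRL at 24 h and PIO+GM vs GM at 24 h (55, 216, 25 and 18) depended on the setting. They were 95 and 350 at 6 h with at least 10 counts in every library; 22, 75 and, in PIO vs CTRL at 24 h, 16 without a filter; 212, 670, 148 and 72 by the likelihood ratio test; 371, 1990, 241 and 98 with the replicate block; 0, 0, 76 and 40 with the 12 libraries of the time point; 0, 0, 8 and 3 with the 6 libraries compared; 383, 1330, 162 and 112 by DESeq2; 201, 125, 94 and 44 with the GC trend removed; and 838, 735, 562 and 213 with the block as well. Leaving out 1 library gave 6 to 259 (without CTRL replicate 1 and PIO+GM replicate 1 of 6 h), 4 to 4040 (without PIO+GM replicates 2 and 1 of 6 h), 2 to 51 (without CTRL replicate 3 or PIO replicate 2, and without CTRL replicate 2, of 24 h) and 1 to 26 (without PIO+GM replicate 2 of 24 h and PIO replicate 3 of 6 h).

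Of the PPAR targets other than Angptl4, the number higher in PIO vs CTRL at 6 h was 1, and became 2 without TMM factors, 3 with at least 10 counts, by the likelihood ratio test and with the replicate block, 5 by DESeq2, 4 with the GC trend removed, 7 with the block as well and 0 with 12 or 6 libraries; the number lower was 0, and 2 by the likelihood ratio test, by DESeq2 and with the GC trend removed, with or without the block. In PIO+GM vs GM at 6 h, 4 higher became 2 without a filter or with the GC trend removed, with or without the block, and 0 with 12 or 6 libraries, and 2 lower became 0 with 12 or 6 libraries. At 24 h, 3 higher in PIO vs CTRL became 5 by the likelihood ratio test, 8 with the replicate block, 7 by DESeq2 and 9 with the block and GC trend removed, and 3 in PIO+GM vs GM became 1 with 6 libraries and 5 by DESeq2 and with the block and GC trend removed. Leaving out 1 library gave 1 to 3 higher and 0 to 2 lower in PIO vs CTRL and 0 to 5 higher and 0 to 5 lower in PIO+GM vs GM at 6 h, and 1 to 4 higher in each at 24 h.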
